A study of Mus musculus with 8 samples.

Results

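The nuclear-encoded subunits of the mitochondrial respiratory chain were followed in microglia of the mouse lateral geniculate nucleus (LGN), the thalamic relay of the optic nerve. Members were taken by gene symbol: protein-coding Ndufa, Ndufb, Ndufc, Ndufs and Ndufv genes with a number, Sdha to Sdhd, Uqcr genes, Cox4i to Cox8 genes and Atp5 genes, with the Ndufaf assembly factors left out. This gave 82 of the 26062 genes in the count table: 37 for complex I, 4 for complex II, 8 for complex III, 16 for complex IV and 17 for complex V. Of these, 81 passed the filter on low counts. Cox8b, the muscle isoform of a complex IV subunit, did not.

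All 8 libraries came from male wild-type C57BL/6J mice aged 2 to 3 months, and microglia were isolated with CD11b magnetic beads. There were 2 libraries from uninjured mice, 3 from mice 1 day after bilateral optic nerve crush and 3 from mice 3 days after the same injury. Whether a library holds 1 animal or several is not stated in the sources used here, and p-values therefore reflect only how much these libraries vary. In sorted bulk RNA, fewer cells of a type and less RNA per cell cannot be told apart.

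Complexes I to IV pass electrons from NADH and succinate to oxygen, and complexes I, III and IV pump protons across the inner mitochondrial membrane. Complex V, the ATP synthase, uses that gradient to make ATP. Most subunits are encoded in the nucleus and imported, and a small set in complexes I, III, IV and V is encoded by mitochondrial DNA. In microglia, mitochondrial respiration is best known as the main energy supply of the surveying state, and inflammatory stimulation is known to move these cells toward glycolysis.

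The libraries held 12700098 to 17994861 counted reads. All 13 microglial markers had counts in every library, and their summed level was 8559 to 11350 CPM (reads scaled to a common library size) in uninjured, 12090 to 15180 CPM in day 1 and 8226 to 10040 CPM in day 3 libraries. Other cell types also left RNA in the samples. The 13 endothelial markers summed to 1739 to 1888, 809.3 to 968.6 and 1532 to 1591 CPM in uninjured, day 1 and day 3 libraries, and 8 of them were called lower at day 1 against uninjured. The 11 mural cell markers followed the same order, at 1427 to 1660, 787.7 to 986.6 and 1136 to 1297 CPM. The 9 choroid plexus markers summed to 551.8 to 5746 CPM in uninjured, 2.09 to 62.8 CPM in day 1 and 645.2 to 3761 CPM in day 3 libraries, with 3 to 6 of the 9 having any count at day 1. Astrocyte markers summed to 68.7 to 159.0 CPM over the 8 libraries, oligodendrocyte markers to 64.8 to 116.2 CPM, and neuron, erythroid and monocyte markers each to under 20 CPM in every library. The part of these other cells in the results below was not tested, except where a value is given.

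Subunit transcripts differed widely in level. Means over the 8 libraries ran from 0.530 to 400.8 CPM, and 13 members lay under 5 CPM. Per kilobase of transcript, the catalytic F1 subunits of the ATP synthase led: Atp5b (beta subunit) averaged 209.2 CPM per kb and Atp5a1 (alpha subunit) 137.8 CPM per kb. These 2 genes made up 24.5% to 35.8% of all member CPM in each library. The highest members per length elsewhere were Cox8a in complex IV (68.6 CPM per kb), Ndufa4 among the complex I symbols (61.8), the hinge subunit gene Uqcrh in complex III (43.3) and the flavoprotein gene Sdha in complex II (43.1). Median levels per complex were 16.1, 17.7, 25.3, 25.5 and 31.7 CPM per kb for complexes I, II, III, IV and V.

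At 1 day after crush, the subunits as a group stood close to the uninjured level. None of the 81 tested members was called in either direction by edgeR's quasi-likelihood test at a Benjamini-Hochberg adjusted p under 0.05, where 1.77% of all 17390 tested genes were, 0.61% higher and 1.16% lower. Before adjustment, 3 members had a p under 0.05, where 14.8% of all genes did. DESeq2 called 1 member higher (Cox6a2) and 1 lower (Uqcrb), and limma-voom called 0. The median log2 fold change of the members was 0.08, against 0.06 over all tested genes. By complex, the medians were 0.08, 0.23, 0.01, 0.07 and 0.13 for complexes I, II, III, IV and V.

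Libraries did not overlap between the groups for 8 members in the higher and 7 in the lower direction, where 14.3% and 15% of all genes did so. The 3 members under an unadjusted p of 0.05 came from different complexes. Uqcrb, a small complex III subunit near the quinone site, had 7.32, 7.70 and 4.99 CPM at day 1, against 11.3 and 15.7 CPM in uninjured libraries. The groups did not overlap, and the log2 fold change was -1.02 (SE 0.36, adjusted p = 0.182). Atp5j2, the f subunit of the membrane part of ATP synthase, had 20.6, 27.3 and 22.4 CPM at day 1, against 14.3 and 13.7 CPM in uninjured libraries (log2 fold change 0.75, adjusted p = 0.235). Cox6a2, described with the isoforms, was the third. The day 1 libraries disagreed among themselves: the median log2 ratio of members to the uninjured mean was -0.25, 0.38 and -0.05 in replicates 1, 2 and 3. Replicate 2 was also the day 1 library with the most reads from mitochondrially encoded genes, 21.9% of its counts, against 13.7% and 13.9% in the other day 1 libraries. Without it the median of the members was -0.13 in place of 0.08, and no member was called.

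**Figure D1:**
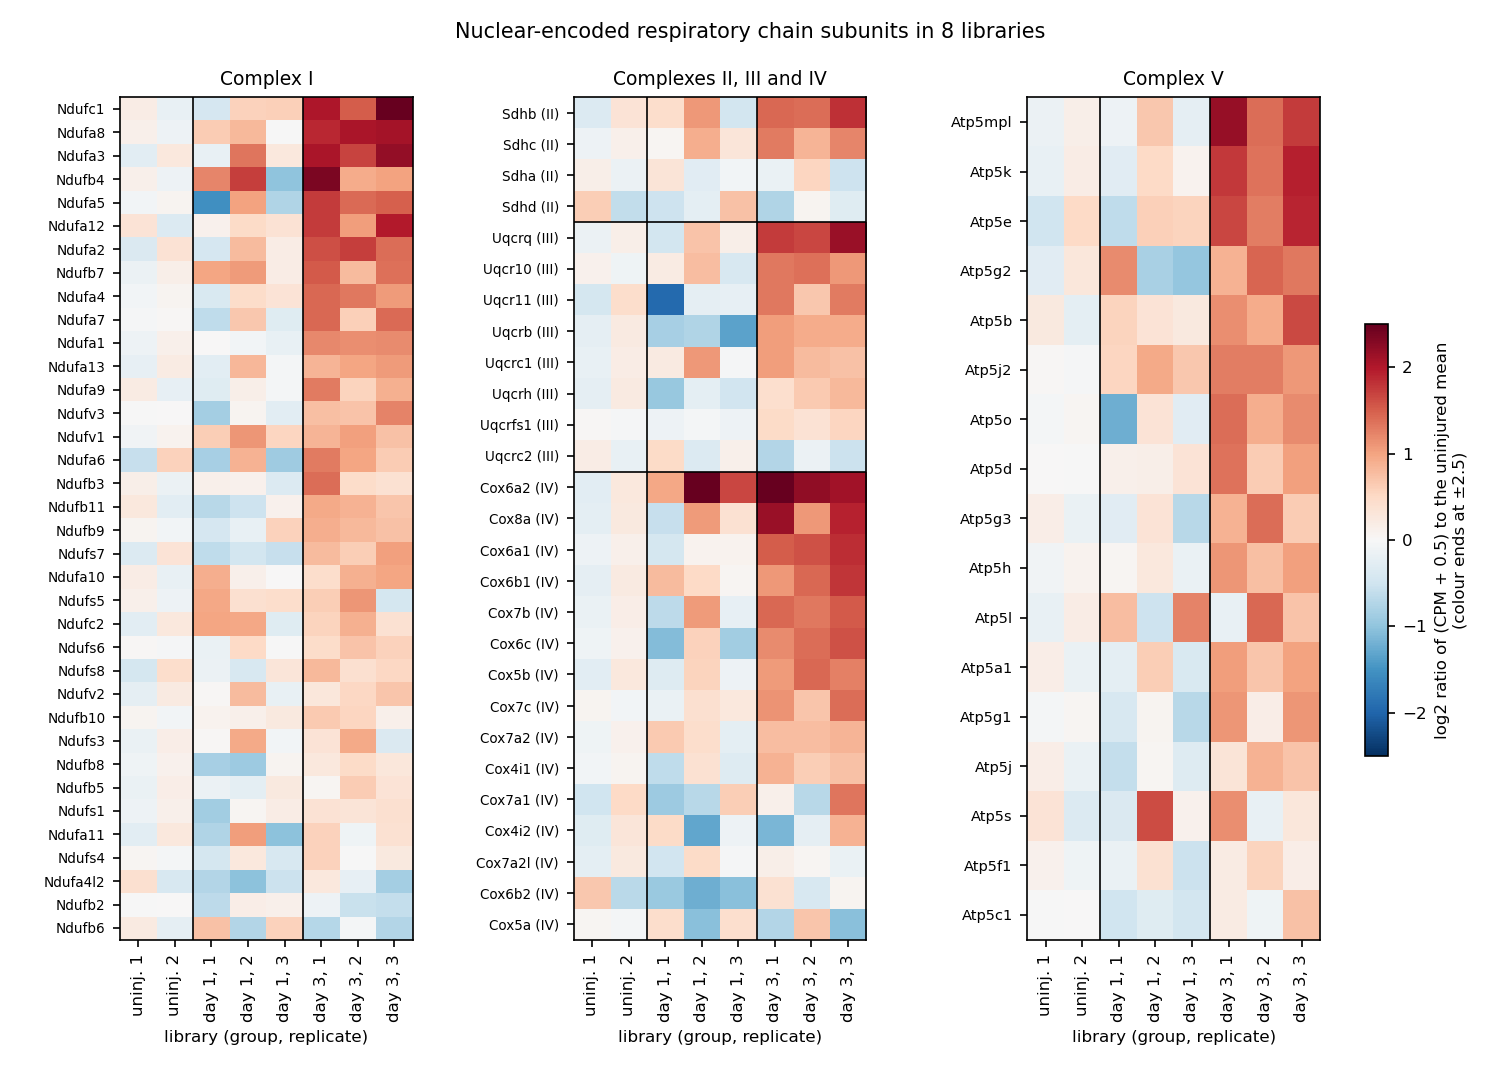
Each row is a tested subunit, with 1 of the 81 not drawn, and each column a library, ordered uninjured, day 1 and day 3; colour gives the log2 ratio of CPM + 0.5 to the mean of the 2 uninjured libraries, and rows run from the highest to the lowest day 3 log2 fold change within a complex. Nearly all rows are red in the 3 day 3 columns, where 70 to 73 of 81 members lay above the uninjured mean, while the day 1 columns hold both colours, with day 1 replicate 2 the reddest of the 3.

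At 3 days after crush, transcripts of most subunits were higher than in uninjured microglia. The median log2 fold change was 0.91 (1.88-fold), against -0.0016 over all tested genes, and 73 of 81 members had a positive value. Past the threshold, 10 of 81 members rose and 0 fell, where 3.47% of all tested genes were called, 2.49% higher and 0.983% lower. Those 10 were Ndufa4, Ndufa8 and Ndufc1 (complex I symbols), Uqcrq (III), Cox6a1 and Cox8a (IV), and Atp5b, Atp5j2, Atp5k and Atp5mpl (V). In 61 members every day 3 library lay above both uninjured libraries, and in 1, Ndufb2, below both, where 20.1% and 19.3% of all genes were so placed. At an unadjusted p under 0.05 there were 43 members, all higher, where 15.8% of all genes passed in either direction.

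The level of the group was similar in the 3 day 3 libraries. The summed level of all members was 3351, 3076 and 3553 CPM at day 3, against 1821 and 1751 CPM in uninjured libraries. The per-library median log2 ratio to the uninjured mean was 0.96, 0.79 and 0.92 at day 3, against -0.07 and 0.07 in uninjured libraries. These sums did not overlap, and the lowest day 3 sum was above the highest day 1 sum of 2308 CPM. As a share of all counted reads, the members held 0.342%, 0.30% and 0.320% in day 3 replicates 1, 2 and 3, against 0.194% and 0.189% in uninjured libraries. Endothelial markers had 0 of 13 called at day 3 against uninjured by edgeR, DESeq2 and limma-voom, with 4 at an unadjusted p under 0.05 and a median log2 fold change of -0.22. Choroid plexus markers had 0 of 9 called by the same 3 tools and 0 at an unadjusted p under 0.05, with a median of -0.27. Of 11 mural markers, edgeR and DESeq2 called 0 and limma-voom 1, with 4 at an unadjusted p under 0.05. Of 13 microglial markers, edgeR called 3 lower and 0 higher at day 3, DESeq2 and limma-voom also called 3, and 8 had an unadjusted p under 0.05. Of 10 astrocyte markers, edgeR called 1 lower, DESeq2 and limma-voom each called 2, and 3 had an unadjusted p under 0.05. Their summed levels were 68.7 to 83.1 CPM at day 3, against 130.4 to 159.0 CPM in uninjured libraries. The part of these markers in the result was not tested.

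**Figure D2:**
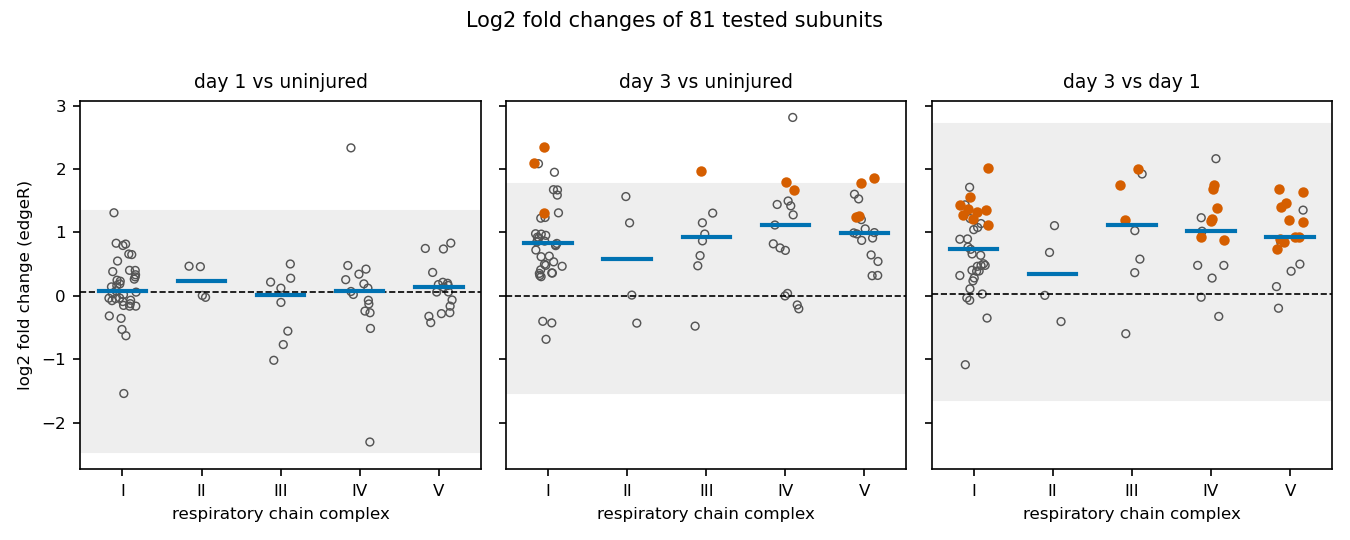
Log2 fold changes (edgeR) of the 81 tested subunits by complex in the 3 comparisons; filled points were called at an adjusted p under 0.05, blue bars are the median of each complex, the dashed line is the median of all tested genes and the grey band their 5th to 95th percentiles. The medians lie near the dashed line at day 1 and above it at day 3 in every complex, with complex II lowest.

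All 5 complexes had positive medians at day 3. Against uninjured, the median log2 fold changes were 0.83 in complex I, 0.58 in complex II, 0.92 in complex III, 1.12 in complex IV and 0.996 in complex V. Called members numbered 3 of 37 in complex I, 0 of 4 in II, 1 of 8 in III, 2 of 15 tested in IV and 4 of 17 in V. All 17 complex V members had positive values. The differences between complexes were not tested, since members of a complex are not replicates of it.

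**Figure D3:**
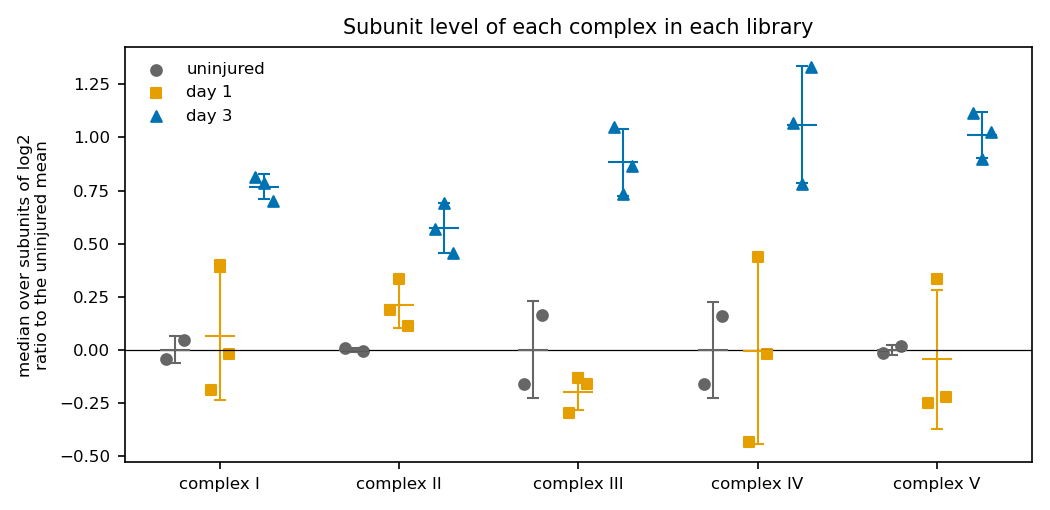
Median over the subunits of each complex of the log2 ratio to the uninjured mean, 1 point per library, with the mean and SD of the libraries of a group (2 uninjured, 3 day 1, 3 day 3). Every day 3 point lies above every uninjured and day 1 point of its complex, by the least in complex II (0.46 at the lowest day 3 library, against 0.33 at the highest day 1 library).

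Among the complex I symbols, the called members were Ndufa8, Ndufc1 and Ndufa4. Ndufa8, an accessory subunit on the intermembrane side, had 21.1, 23.4 and 24.1 CPM at day 3, against 5.82 and 4.84 CPM in uninjured libraries. The 3 day 3 libraries lay close together and far from the uninjured pair, and the log2 fold change was 2.10, with an SE of 0.43 and an adjusted p of 0.0145. Ndufc1, a small accessory membrane subunit, had 23.7, 16.4 and 44.0 CPM at day 3, against 6.30 and 4.74 CPM in uninjured libraries (log2 fold change 2.34, SE 0.52, adjusted p = 0.0219). Day 3 replicate 3 was the highest for Ndufc1, and the groups did not overlap. Ndufa4, named with complex I but known as a cytochrome c oxidase subunit in human cells, had 48.2, 44.0 and 36.8 CPM at day 3, against 16.7 and 18.2 CPM in uninjured libraries (log2 fold change 1.30, SE 0.32, adjusted p = 0.0404).

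Of the core subunits of complex I, which include the carriers of its flavin and iron-sulfur centres, 6 are given here and none of these 6 was called by edgeR against uninjured. Ndufs1, Ndufs3, Ndufs7, Ndufs8, Ndufv1 and Ndufv2 had log2 fold changes of 0.35 to 0.92 at day 3 against uninjured, with a median of 0.52, and edgeR, DESeq2 and limma-voom each called 0 of 6, with 0 at an unadjusted p under 0.05. The 30 other members with complex I symbols, Ndufa4 and Ndufa4l2 among them, had a median of 0.89, with 3 called and 15 under an unadjusted p of 0.05. Ndufs1, the largest iron-sulfur subunit, had 42.8, 41.7 and 44.0 CPM at day 3, against 30.4 and 36.7 CPM in uninjured libraries. The groups of Ndufs1 did not overlap, and its adjusted p was 0.668. The difference between core and other members was not tested.

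Complex II was split. The iron-sulfur subunit gene Sdhb had 33.3, 32.3 and 44.1 CPM at day 3, against 9.40 and 15.3 CPM in uninjured libraries (log2 fold change 1.56, adjusted p = 0.0647). The membrane anchor gene Sdhc had 57.7, 42.1 and 54.5 CPM at day 3, against 20.9 and 25.4 CPM in uninjured libraries (log2 fold change 1.15, adjusted p = 0.0548). Neither pair of groups overlapped, and neither gene passed the threshold, although DESeq2 and limma-voom called both and each had an unadjusted p under 0.05. Sdha, the catalytic flavoprotein and the most abundant member of the complex, had 110.0, 179.2 and 86.9 CPM at day 3, against 137.3 and 111.6 CPM in uninjured libraries. Its groups overlapped, at a log2 fold change of 0.01 (SE 0.27). The second anchor gene, Sdhd, also overlapped, at -0.43.

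In complex III, 1 of 8 members rose, and the other small subunits and the large core proteins did not pass. Uqcrq, a small subunit beside cytochrome b, had 18.3, 17.4 and 24.8 CPM at day 3, against 4.59 and 5.72 CPM in uninjured libraries (log2 fold change 1.96, SE 0.49, adjusted p = 0.0392). Uqcr10, another small subunit, stood at 1.30 without passing (adjusted p = 0.121). The Rieske iron-sulfur protein gene Uqcrfs1 had 32.8, 30.01 and 34.1 CPM at day 3, against 23.7 and 22.9 CPM in uninjured libraries, a small difference without overlap (0.47, adjusted p = 0.448). The core proteins parted, with Uqcrc1 at 0.87 and Uqcrc2 at -0.48, both short of the threshold.

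In complex IV, Cox6a1 and Cox8a rose. Cox6a1, the common form of a regulatory subunit, had 62.8, 66.3 and 78.6 CPM at day 3, against 19.7 and 23.8 CPM in uninjured libraries. Its log2 fold change was 1.67 (SE 0.28, adjusted p = 0.00396), the smallest adjusted p of any member in this comparison. Cox8a, the common form of the smallest subunit, had 82.8, 38.6 and 70.1 CPM at day 3, against 15.2 and 21.5 CPM in uninjured libraries (log2 fold change 1.80, SE 0.44, adjusted p = 0.0389). Cox6b1, Cox7b, Cox6c, Cox5b and Cox7c had log2 fold changes of 1.12 to 1.495, without overlap, and adjusted p-values of 0.0601 to 0.103. Cox4i1, a large regulatory subunit gene, stood at 0.75 (adjusted p = 0.23). Cox7a2l had 81.5, 76.5 and 65.8 CPM at day 3, against 62.2 and 87.2 CPM in uninjured libraries, at -0.0025 (SE 0.26).

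In complex V, both the catalytic head and the membrane part contributed. Atp5b had 539.0, 462.1 and 765.1 CPM at day 3, against 284.9 and 205.6 CPM in uninjured libraries. Its log2 fold change was 1.26 (SE 0.22), and its adjusted p of 0.00523 was the second smallest. Its partner Atp5a1 had 515.4, 405.1 and 505.7 CPM at day 3, against 282.0 and 223.7 CPM in uninjured libraries (0.91, adjusted p = 0.069). Atp5a1 shares 129 exonic bases with Haus1 on the other strand. The remaining called members belong to the membrane part: Atp5k (e subunit), Atp5mpl (a small proteolipid) and Atp5j2 (f subunit).

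Atp5mpl had 53.5, 30.6 and 39.5 CPM at day 3, against 10.3 and 12.6 CPM in uninjured libraries (log2 fold change 1.85, SE 0.39, adjusted p = 0.0158). Atp5k had 21.6, 16.01 and 24.4 CPM at day 3, against 5.18 and 6.90 CPM in uninjured libraries (1.78, SE 0.45, adjusted p = 0.0431). Atp5j2 had 34.5, 34.8 and 30.01 CPM at day 3, against 14.3 and 13.7 CPM in uninjured libraries (1.25, SE 0.30, adjusted p = 0.0325). None of these 3 genes overlapped between day 3 and uninjured libraries. The rotor gamma subunit Atp5c1 and the stator b subunit Atp5f1, each at 0.32, moved least in complex V and were not called.

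**Figure D4:**
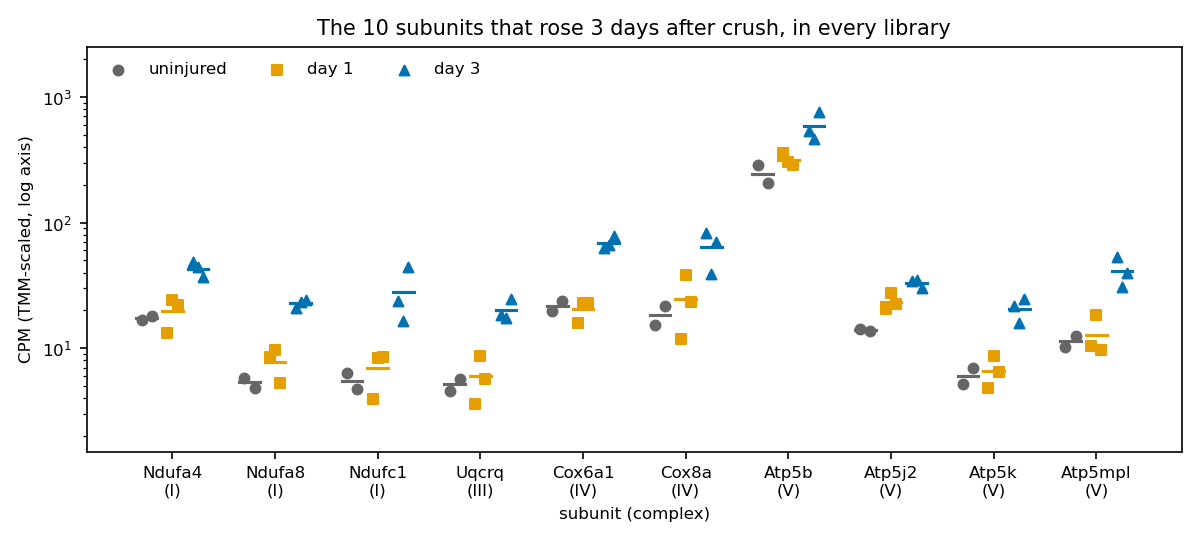
CPM of the 10 members called higher at day 3 against uninjured, on a log axis, 1 point per library with the group mean as a bar, in the order uninjured, day 1 and day 3. The day 3 points lie above both uninjured points for every gene, while the day 1 points lie mostly among or just above the uninjured ones.

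The count of 10 rested on few libraries. It was 1 without uninjured replicate 1 (Atp5b) and 1 without uninjured replicate 2 (Cox6a1), where the single uninjured library left is assumed to vary like the other groups. It was 3, 5 and 2 without day 3 replicates 1, 2 and 3, and 20 and 24 without day 1 replicates 1 and 2, which enter through the shared spread, the scaling and the filter. Fitting only uninjured and day 3 libraries gave 34 members, DESeq2 29 and limma-voom 23, each including the 10. Calls over all genes moved too, from 604 of 17390 to 1345 of 16696, 1375 of 26062 and 854 of 17390 in these 3 fits. The 26062 are the genes fitted, before DESeq2's own filter on low counts, so that share is not over the genes it adjusted. All-gene calls were 276, 449 and 172 without day 3 replicates 1, 2 and 3, and 768 and 982 without day 1 replicates 1 and 2. The other 8 of the 10 were called in 3 or 4 of the 8 fits with a library left out, and Atp5b and Cox6a1 in 7. All these calls were higher. Scaling by the upper quartile or by library size alone moved the median of all genes to -0.11 and -0.15, and the members stood 0.92 above it under each. The median of the members stayed between 0.87 and 1.03 with each of the 8 libraries left out.

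Day 3 against day 1 gave the same direction with more calls. Here 30 of 81 members rose and 0 fell, where 11% of all tested genes were called, 5.24% higher and 5.75% lower. The median log2 fold change was 0.90, against 0.02 over all tested genes, and 72 members had positive values. At an unadjusted p under 0.05 there were 44 members, where 26.2% of all genes passed. In 48 members every day 3 library lay above all 3 day 1 libraries, and in 0 below, where 16.1% and 13.6% of all genes were so placed. Called members numbered 9 in complex I, 0 in II, 3 in III, 7 in IV and 11 in V, with medians of 0.73, 0.34, 1.11, 1.02 and 0.93. Of the 10 members called against uninjured, 9 were also called here, the exception being Atp5j2, and both comparisons share the day 3 libraries.

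Cox6a1 and Uqcrb had the smallest adjusted p-values in this comparison. Cox6a1 had 62.8, 66.3 and 78.6 CPM at day 3, against 15.9, 23.0 and 23.1 CPM at day 1 (log2 fold change 1.74, SE 0.24, adjusted p = 0.00047). Uqcrb had 28.1, 25.8 and 25.7 CPM at day 3, against 7.32, 7.70 and 4.99 CPM at day 1 (1.99, SE 0.33, adjusted p = 0.00175). Neither gene overlapped between the groups, and with Atp5mpl (1.69, adjusted p = 0.00505) they were the members called with each of the 8 libraries left out. For Uqcrb the difference from day 1 includes the low day 1 level given above, and its day 3 value against uninjured, 0.97, did not pass (adjusted p = 0.19).

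Ndufs7, which carries the last iron-sulfur centre before the quinone, was called against day 1. It had 19.5, 17.2 and 22.9 CPM at day 3, against 6.93, 7.86 and 7.21 CPM at day 1 (log2 fold change 1.44, SE 0.36, adjusted p = 0.0186), and lost the call without day 3 replicate 1 or 3 (highest adjusted p = 0.095). Its uninjured libraries had 8.60 and 14.1 CPM, below all 3 day 3 libraries. In complex V the calls reached the F1 head (Atp5a1, Atp5b, Atp5c1, Atp5e), the stalk (Atp5o, Atp5h, Atp5j) and the proton-carrying c-ring (Atp5g1, Atp5g3). Their log2 fold changes ran from 0.74 for Atp5c1 to 1.47 for Atp5o. Atp5o and Atp5j share 702 and 397 exonic bases with genes on the other strand, and the strand setting of the counting is not given in the sources used here. Atp5o also shares 243 exonic bases on the same strand with another entry of the same name, and 47.9% of its exonic length is shared in all. The part of these overlaps in the calls was not tested.

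The count of 30 was 14 when day 1 replicate 1 or day 1 replicate 3 was left out, 11, 18 and 4 when day 3 replicate 1, 2 or 3 was, and 18 with a length correction. Over all genes, the 1912 calls became 1431 and 1533 without those day 1 libraries. They became 1055, 1301 and 747 without day 3 replicates 1, 2 and 3, and 1956 with the length correction. Markers of other cells moved with this comparison: 8 of 13 endothelial, 4 of 11 mural and 5 of 9 choroid plexus markers were called higher at day 3 than at day 1, and 5 of 13 microglial markers lower. Their part in the result was not tested.

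Among isoforms with restricted expression, the highest fold change was that of Cox6a2. Cox6a2, the heart and skeletal muscle form of subunit 6A, had 0.801 and 1.39 CPM in uninjured, 2.57, 9.63 and 4.497 CPM in day 1 and 10.3, 6.78 and 6.21 CPM in day 3 libraries. Neither injured group overlapped with the uninjured libraries, and its log2 fold changes of 2.33 at day 1 and 2.81 at day 3 did not pass (adjusted p = 0.128 and 0.0516). DESeq2 called it in both comparisons and limma-voom in neither. Per kilobase, Cox6a2 was 3.30% to 4.69% of the Cox6a1 and Cox6a2 pair in uninjured, 11.96% to 25.99% in day 1 and 6.22% to 12.1% in day 3 libraries. Cox6a2 shares 70 exonic bases with Itgad, an integrin gene on the other strand, which had 2.70 ± 1.63 CPM in uninjured (SD, n = 2), 6.28 ± 2.65 CPM in day 1 (SD, n = 3) and 2.18 ± 1.46 CPM in day 3 libraries (SD, n = 3). Itgad was thus highest at day 1, at a log2 fold change of 1.22 against uninjured (adjusted p = 0.546), and its part in the Cox6a2 counts was not tested.

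The other tissue-restricted forms had low counts, and edgeR called 0 of those it tested. Cox4i2 and Cox7a1 each stayed at or under 2.82 CPM in every library. Cox6b2 and Ndufa4l2 each stayed at or under 1.98 CPM, and Ndufa4l2 was 0.317% to 3.58% of its pair with Ndufa4. Cox8b, which did not pass edgeR's filter on low counts, had 0.588 and 0.309 CPM in uninjured, 0 counts in all 3 day 1 and 2.55, 0.149 and 0.645 CPM in day 3 libraries. DESeq2 called Cox8b higher at day 3 than at day 1, while the day 3 and uninjured libraries overlapped. Choroid plexus markers were also lowest at day 1, and their part was not tested. Among the 3 genes for the c-ring subunit, Atp5g3 was the most abundant per kilobase and Atp5g2 was 1.10% to 11.8% of its pair with Atp5g3.

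Some members share sequence with other genes. Of the 82 members, 33 have an annotated near-identical copy, 48 copies were in the count table, and for Ndufa12, Ndufs5, Uqcr10, Cox5a, Cox7c, Atp5g2 and Atp5l the copies held over 30% of the member's own counts, so those levels are uncertain. None of the 10 members called against uninjured is among these 7, and the largest measured share among the 10 was 4.78% for Atp5b. Of the 10, 5 have a near-identical copy. The share counts only copies in the count table, and the copies of Ndufa4, Cox6a1 and Atp5j2 are not in it. It also does not measure reads that were not counted, so the part of copies in these calls was not tested. Adding the counts of the copies in the count table to their members left 10 calls against uninjured. It gave 27 against day 1, without Ndufa12, Cox7c and Atp5g1.

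Members with shorter coding sequences had higher fold changes. Across the 81 members, Spearman's rho between coding length and the log2 fold change at day 3 was -0.45 against uninjured and -0.45 against day 1, and -0.07 for day 1 against uninjured. The points share libraries and groups, and are not independent. The 41 members at or under the median coding length of 414 bases had a median log2 fold change of 1.24 against uninjured, with 8 called, and the 40 longer ones 0.77, with 2 called (Ndufa8 and Atp5b). With mean level, rho was -0.0013. With exonic length, rho over the members was -0.22 against uninjured and -0.32 against day 1. Over all 17334 tested genes with a length, rho with exonic length was -0.08 against uninjured and -0.0042 against day 1. A correction for exonic length, which is not a correction for coding length, left the median at 0.83 and 7 members called. The part of coding or transcript length in the order of the members was not tested.

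**Figure D5:**
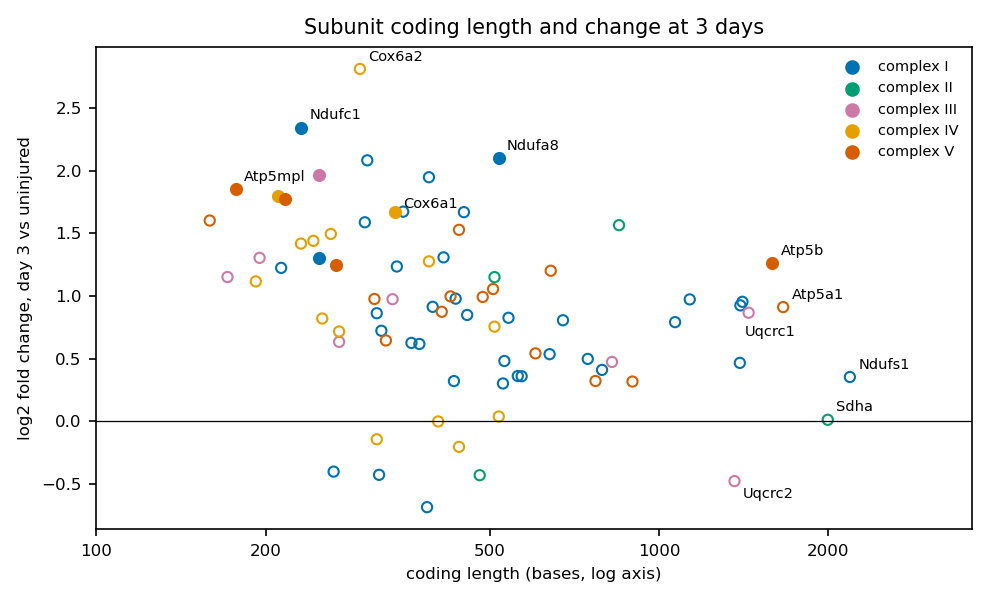
Coding length (bases, log axis) against the log2 fold change at day 3 over uninjured for the 81 tested members, coloured by complex; filled points were called. Points above 1.5 lie mostly under 500 bases, and the longest members, Sdha and Ndufs1, stand at 0.01 and 0.35.

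Genes that act beside the subunits were taken from lists by function. Of 13 mitochondrially encoded subunit genes, 12 were in the count table and 7 were tested. In every library mt-Nd3, mt-Nd4l, mt-Co2, mt-Co3 and mt-Atp6 had 0 to 6 counts, while mt-Co1 had 110192 or more. The reason for these low counts was not tested. Of the 7 tested genes, edgeR called 0 in each comparison, with 0, 3 and 4 at an unadjusted p under 0.05 for day 1 against uninjured, day 3 against uninjured and day 3 against day 1. DESeq2 called 0, 1 and 3, and limma-voom 0, 0 and 0. At day 3 against uninjured their median log2 fold change was 0.90, all 7 were positive, and in all 7 every day 3 library lay above both uninjured libraries. mt-Nd1, a complex I subunit gene, had 9438, 8015 and 11540 CPM at day 3, against 3608 and 3881 CPM in uninjured libraries (1.37, adjusted p = 0.124). mt-Co1, the catalytic subunit gene of complex IV, had 18500, 18620 and 23620 CPM at day 3, against 12910 and 12330 CPM in uninjured libraries (0.68, adjusted p = 0.319). Day 1 replicate 2 lay apart here too, with 19150 CPM of mt-Co1 against 8582 and 8204 CPM in the other day 1 libraries.

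A list of 3 electron carriers and subunits outside the symbol rule held Cyc1, Cycs and Ndufab1. Of these 3, 0 were called by edgeR, DESeq2 or limma-voom, and 0 had an unadjusted p under 0.05. Cyc1, which carries the haem of cytochrome c1, stood at 0.52 at day 3 against uninjured, cytochrome c (Cycs) at 0.26 and the acyl carrier subunit Ndufab1 at 0.02. The ATP synthase inhibitor Atpif1, also outside the rule, rose. It had 47.5, 23.0 and 46.8 CPM at day 3, against 9.08 and 9.32 CPM in uninjured libraries (log2 fold change 2.09, SE 0.46, adjusted p = 0.0221). Against day 1 its log2 fold change was 1.503 (adjusted p = 0.0236). The call against uninjured was lost on leaving out either uninjured library or day 3 replicate 1 or 3 (highest adjusted p = 0.214). The call against day 1 was lost on leaving out replicate 1 or 3 of either time. Usmg5, a further subunit gene outside the rule, had 15.9, 17.6 and 18.6 CPM at day 3, against 9.4 and 8.3 CPM in uninjured libraries. The groups of Usmg5 did not overlap, and edgeR did not call it. Of Atpif1, Usmg5 and Itgad, edgeR and limma-voom called 1 at day 3 against uninjured and DESeq2 2, with 2 at an unadjusted p under 0.05.

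Assembly factors and citric acid cycle genes had positive medians at day 3. Of 45 assembly factors tested, 1 rose at day 3 against uninjured and 0 fell, where 2.49% of all tested genes were called higher and 0.983% lower. Their median was 0.40. That 1 was Coa5, a complex IV assembly factor, with 83.6, 70.0 and 69.4 CPM at day 3, against 42.4 and 36.3 CPM in uninjured libraries (0.92, adjusted p = 0.0487). At day 3 against uninjured, DESeq2 called 3 of the 45 and limma-voom 1, and 5 had an unadjusted p under 0.05 by edgeR. In the other 2 comparisons edgeR and limma-voom called 0 of 45. DESeq2 called 2 for day 1 against uninjured and 5 for day 3 against day 1. By edgeR, 4 and 6 had an unadjusted p under 0.05 in these 2 comparisons. Of 13 citric acid cycle genes, 2 rose at day 3 against uninjured, where 2.49% of all tested genes were called higher, with a median of 0.50: malate dehydrogenase Mdh2 (0.99, SE 0.24, adjusted p = 0.0323) and Ogdh, of the 2-oxoglutarate dehydrogenase complex (0.76, SE 0.19, adjusted p = 0.0421). Against day 1, 3 of the 13 rose, where 5.24% of all tested genes were called higher, with Mdh2 and citrate synthase (Cs, 0.61) among them. The day 3 calls of Coa5, Mdh2 and Ogdh against uninjured were lost without either uninjured library and without each day 3 library, and that of Coa5 also without day 1 replicate 3. Against day 1, Mdh2 lost its call without day 3 replicate 3, and Cs kept its call only without day 1 replicate 2. The differences between these lists and the subunits were not tested.

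Regulators of mitochondrial biogenesis gave no call at day 3 against uninjured. Of 13, 0 were called at day 3 against uninjured by edgeR, DESeq2 or limma-voom, 0 had an unadjusted p under 0.05, and the median was -0.18. Nrf1, a transcription factor of many subunit genes, averaged 24.1 ± 6.43 CPM at day 3 (SD, n = 3) and 20.8 ± 2.77 CPM in uninjured libraries (SD, n = 2), at 0.21 (adjusted p = 0.838). Ppargc1a, which encodes the coactivator PGC-1alpha, fell at day 1, with 1.01, 1.04 and 2.46 CPM, against 36.1 and 8.55 CPM in uninjured libraries (-3.86, SE 0.72, adjusted p = 0.014), and had 34.0, 6.33 and 16.5 CPM at day 3. Against day 1 it rose at day 3 (3.63, SE 0.68, adjusted p = 0.00378), called with each of the 8 libraries left out but not by limma-voom. The fall at day 1 was not called by limma-voom, nor with uninjured replicate 1, day 1 replicate 1 or day 1 replicate 2 left out. Choroid plexus markers moved with Ppargc1a, and their part was not tested. Pprc1, a related coactivator gene, and Gabpb1, a subunit of the factor NRF2, were lower at day 3 than at day 1 (-0.75 and -0.80, adjusted p = 0.0295 and 0.0292). Both calls were lost on leaving out day 1 replicate 1 or day 3 replicates 1 or 2, and Gabpb1's also on leaving out day 3 replicate 3.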

How the data were processed

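The authors deposited unnormalized read counts for each Ensembl gene in a single table with a column for every library. FastQC, STAR and HTSeq, with the mouse build mm9, are listed in the submitters' processing notes, while versions, annotation and strandedness are not given in these sources. RNA was extracted with a micro column kit and linearly amplified, per the labels' protocols. Symbols, lengths and overlaps came from GENCODE M21 on GRCm38 (25925 of 26062 IDs matched, the rest holding 0.127% of counts), so no coordinates are given for the counts. The replicates of a group differed beyond sampling noise (chi-square per degree of freedom of 34.1 or more), so no 2 were merged.

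The test was edgeR's quasi-likelihood F-test (version 4.0.16, R 4.3.3), with a robust fit, TMM scaling and genes kept by filterByExpr (17390). The 8 libraries entered 1 model with a mean for each group, so that the 2 uninjured libraries borrow the spread of the rest. Calls used Benjamini-Hochberg adjustment across every tested gene, with adjusted p under 0.05. Levels are TMM-scaled CPM. The standard error is the log2 fold change divided by the square root of F. The biological coefficient of variation was 51.1%. Near-identical copies were found with blastn 2.17.0 (at least 90% identity over 80% of the coding sequence). Lists are described by counts and medians, with no list test. Some genes are not reported here.

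Alternatives were DESeq2 1.42.0, limma-voom (limma 3.58.1), other scalings and filters, a fit of 2 groups and mitochondrially encoded genes left out. A length offset (on exonic length), replicate blocks and each library left out were the others. Summing copies was added after seeing the data. On simulated counts for 17390 genes, 2-fold changes were recovered in 17%, 15% and 20% of cases and 4-fold changes in 59%, 47% and 63%, for day 1 against uninjured, day 3 against uninjured and day 3 against day 1, with 6.17%, 8.82% and 3.49% of calls false. The members, lists and the rule for named genes were chosen with earlier results of these data known. The rule names each called member, in each complex the 2 members with the smallest p and the highest level per length, fixed core subunits and isoforms, and from each list those called or with the smallest p.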

Additional observations from a re-analysis of the deposited data

Results flagged for a closer look

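The change from uninjured differed between 3 days and 1 day after crush for 30 of the 81 tested subunits, by the test of that difference itself (day 3 against day 1 in 1 edgeR quasi-likelihood fit, adjusted p under 0.05 with Benjamini-Hochberg adjustment across 17390 genes), where 11% of all tested genes were called in either direction. Both changes share the uninjured libraries, so their difference is the log2 fold change of day 3 over day 1, and it was positive for each of the 30. Among complex I symbols the differences were Ndufc1 2.01, Ndufa8 1.55, Ndufs7 1.44, Ndufa12 1.37, Ndufa2 1.36, Ndufa1 1.31, Ndufv3 1.27, Ndufb11 1.20 and Ndufa4 1.11. In complex III they were Uqcrb 1.99, Uqcrq 1.75 and Uqcrh 1.19. Complex IV gave Cox6a1 1.74, Cox6c 1.69, Cox8a 1.38, Cox5b 1.21, Cox7b 1.19, Cox7c 0.93 and Cox4i1 0.88. Complex V gave Atp5mpl 1.69, Atp5k 1.64, Atp5o 1.47, Atp5e 1.41, Atp5g1 1.20, Atp5g3 1.16, Atp5h 0.93, Atp5j 0.93, Atp5b 0.90, Atp5a1 0.85 and Atp5c1 0.74. No complex II member was among them.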

How the results depend on the processing

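No call and no called member changed sign under any alternative run. DESeq2 called 2 members at day 1 against uninjured in place of 0, where its calls over all genes were 909 in place of 308. For day 3 against uninjured, the 10 calls became 29 with DESeq2, 23 with limma-voom, 34 with only the 2 groups compared, 16 with no filter on low counts, 6 with library size alone and 5 with the replicate block and length offset. Calls over all genes went from 604 to 1375, 854, 1345, 739, 561 and 395 in the same order. For day 3 against day 1, the 30 calls became 18 with the length offset and 14 with the replicate block and length offset. Over all genes, 1912 calls became 1956 and 1771. Library size alone and upper-quartile scaling gave day 3 medians against uninjured of 0.77 and 0.81 for all members, 0.68 and 0.72 for complex I, 0.43 and 0.47 for complex II and 0.85 and 0.89 for complex V, and day 1 medians for complex II of 0.10 and 0.15. Under the same 2 scalings, 56.5% and 56.1% of all calls at day 3 against uninjured were higher, in place of 71.7%, and 16.5% and 24.6% at day 1, in place of 34.4%. The length offset gave 0.32 for complex II at day 1, 0.69 for complex I at day 3 against uninjured and 0.48, 0.20 and 0.87 for complexes I, II and III at day 3 against day 1. With the replicate block and length offset, complex II stood at 0.40 at day 1, and complexes II and III at 0.20 and 0.91 at day 3 against day 1. Summing copies gave 0.82 for complex IV at day 3 against uninjured and 0.94 for complex III against day 1. The cause of these shifts was not tested.

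With each of the 8 libraries left out, calls ran from 1 to 24 for day 3 against uninjured and from 4 to 37 for day 3 against day 1, and 0 were made at day 1. The medians of all members ran from 0.87 to 1.03 for day 3 against uninjured. At day 1 they ran from 0.077 to 0.35 for complex II, -0.18 to 0.016 for complex III and -0.21 to 0.20 for complex V. For day 3 against uninjured they ran from 0.42 to 0.67 for complex II, 0.70 to 1.12 for complex III and 0.94 to 1.08 for complex V. For day 3 against day 1 they ran from 0.99 to 1.37 for complex III.

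Same-numbered libraries of different groups did not deviate together (correlations of -0.06 to 0.09), so no pairing by number was seen. The deviations are from group means, so the 2 uninjured libraries mirror each other, and these correlations cannot exclude a pairing. A replicate block gave 0, 7 and 22 calls for day 1 against uninjured, day 3 against uninjured and day 3 against day 1, with member medians of 0.09, 0.98 and 0.93. Over all genes it gave 301, 424 and 1700 calls, in place of 308, 604 and 1912. Low counts limit 13 members under 5 CPM, of which edgeR called 0 and DESeq2 called Cox8b and Uqcr11 at day 3 against day 1. On simulated counts most 2-fold changes were missed in each comparison. The share recovered was 17% for day 1 against uninjured, 15% for day 3 against uninjured and 20% for day 3 against day 1.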
